A study of Rattus norvegicus with 18 samples.

Results

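Transcript levels in laminin-binding germ cells of the rat testis were set against those in the somatic cells of the seminiferous tubule, with attention to ligands, receptors and the proteins of cell junctions. The comparison used 4 of the 18 arrays of the study, 2 for the laminin-binding germ cells and 2 for the tubular somatic cells, chosen by their titles. Both populations came from testes of 22-day-old rats. The labels mark the germ cells as cultured, with no day, medium or feeder, and mention no culture for the tubular somatic cells, so culture and cell type cannot be told apart. 2 further fractions appear below for reference: laminin non-binding germ cells, also marked as cultured, and interstitial cells, which lie between the tubules. In the other 5 populations germ cells had been grown on mouse feeder layers, STO for 1, 5, 10 or 20 days or MSC1 for 20 days. The sources used here do not give strain, pooling of animals or the way the fractions were isolated.

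Laminin is a sheet-forming protein of the basement membrane on which the seminiferous epithelium rests, and spermatogonial stem cells carry integrins that bind it, so adhesion to laminin is a common way to enrich them. Sertoli cells span the epithelium from that membrane to the lumen. They secrete growth factors that spermatogonia read through surface receptors, and they are joined to each other by tight, gap and adherens junctions that form the blood-testis barrier. Peritubular myoid cells wrap the tubule and make part of the basement membrane.

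Each population had been hybridised once to each of 2 oligonucleotide array types, called A and B here, which carry different probe sets. A value is the scaled signal of a probe set, in arbitrary units that the authors had set to an average of 250 on every array. Signals under 50 were raised to this floor before a fold was taken, so a fold is a lower bound where the dimmer side lay below it. A probe set or gene was called higher or lower where the brighter side reached 250 and the fold reached 3. With 1 array per population and type there is no replicate, so no test was possible, and a call describes these libraries and not the cell types at large.

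Of 31042 probe sets on both types, 1488 were called higher in the laminin-binding cells, 4.79% of them, and 1631 were called lower, 5.25%. Read as 13810 genes, 923 were higher (6.68%) and 913 lower (6.61%). The median signal was 92.9 in the binding and 80.9 in the tubular library on type A, and 128 and 131 on type B. For beta-actin the 3' probe set over the 5' probe set, a ratio that grows as RNA is shortened in amplification or degradation, gave 21.6 in the binding and 67.3 in the tubular library on type A, and 13.1 and 48.9 on type B. Its part in the differences below was not tested. A repeat measurement exists for the 100 probe sets that both types carry, read from the same 2 populations. Their log2 folds had a standard deviation of 0.25 per type between the types, so that 2 standard deviations correspond to a fold of 1.42, and no probe set was past 3-fold in opposite directions. The median log2 fold of these 100 probe sets was 0.11 with type A but -0.20 with type B. For a single probe set the types differed by up to 1.34. The standard deviation leaves out the shift between the medians, so the 1.42-fold understates how far the types disagree. Most of these probe sets were bright, and the spread of dim ones was not tested. This spread covers the array step and not animals or cultures.

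**Figure D1:**
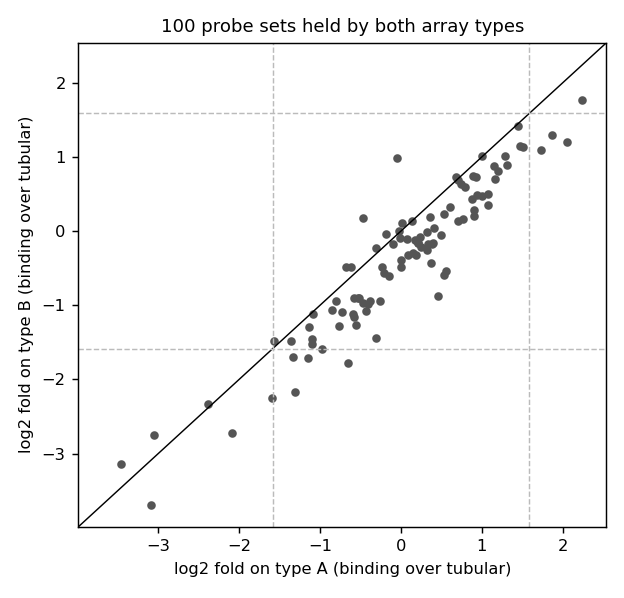
Log2 fold of laminin-binding over tubular somatic cells on type A (horizontal axis) and on type B (vertical axis) for the 100 probe sets held by both array types, 1 point each. The solid line marks equal folds and the dashed lines mark 3-fold, which 7 probe sets passed on both types and 8 on only 1 type.

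Markers of the labelled cell types separated the libraries. All 8 general germ cell markers on the arrays were called higher in the binding cells, with Tex15, needed for meiotic recombination, at 6778 in the binding and 219 in the tubular library. Of 18 markers of undifferentiated spermatogonia, 7 were higher and 0 lower. Sox3, a transcription factor of these cells, read 1567 against 49.4, and Nanos3, an RNA-binding germ cell factor, 437 against 8.8. Markers of differentiating spermatogonia were also higher in 2 of 6 cases and lower in 0. These were Dnmt3a at 2420 against 666 and Sohlh1 at 421 against 54.1. Ccnd2 of that list went the other way without a call, at 273 against 416. Of 15 spermatocyte and spermatid genes 2 were higher, the meiotic cohesins Stag3 and Smc1b. Pachytene genes were low in both libraries, with Spo11 at 14.5 and 4.5 and Crisp2 at 20.3 and 15.4, whereas the non-binding cells read 2417 and 3811.

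The tubular library carried Sertoli and contractile transcripts. Of 18 Sertoli markers, 10 were called lower in the binding cells and 0 higher, and the summed signal of the list was 3099 in the binding, 18758 in the tubular, 2938 in the non-binding and 11549 in the interstitial library. Wt1, a transcription factor of Sertoli cells, read 155 in the binding and 1273 in the tubular library, and Gata4 read 152 and 1089. Sox9 and Amh, also Sertoli genes, were under the floor in both. Of 12 peritubular myoid markers, 4 were lower in the binding cells, among them Tagln at 46.9 against 1163, although the defining smooth muscle gene Acta2 read only 10.7 against 93.5. The fibroblast list had 7 of 14 lower, with a summed signal of 1547 in the binding and 10253 in the tubular library. Macrophage genes had summed signals of 1107 and 1070.3 with 0 of 17 called, and 0 of 11 endothelial genes were called. Leydig genes had 1 of 12 lower, Star at 106 against 672. The label tubular somatic cells covers Sertoli and myoid cells alike, and the part of each cell type in the differences was not tested. In such mixtures fewer cells of a type and less RNA per cell cannot be told apart.

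Across 26 gene lists of signalling, adhesion, junction and exchange, 683 genes had a probe set, and 30 were called higher in the binding cells (4.39%) and 85 lower (12.4%), beside 6.68% and 6.61% over all genes. Higher and lower calls were spread unevenly over the roles. Of 183 ligands 6 were higher (3.28%) and 19 lower (10.4%). Receptors had 7 higher and 7 lower of 164, 4.27% each, which is under the shares over all genes. Of 51 pathway target genes 7 were higher (13.7%) and 0 lower. The shares over all genes, 6.68% higher and 6.61% lower, are the yardstick for every list count below. Of 55 adhesion genes 1 was higher and 15 lower, and of 126 junction genes 4 were higher and 25 lower. The plot of called shares per list shows the lists at either end.

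**Figure D2:**
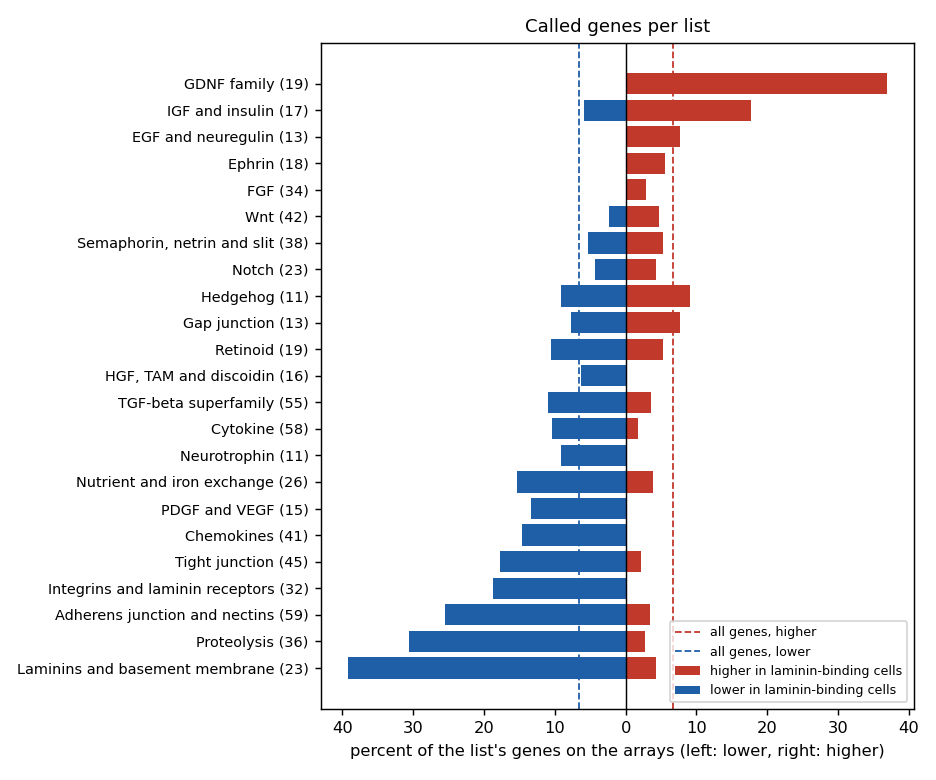
Percent of the genes of each list that were called, to the right where higher in laminin-binding cells and to the left where lower, with the number of genes on the arrays in brackets; lists under 10 genes are not drawn. Dashed lines mark the shares over all genes, 6.68% higher and 6.61% lower. The GDNF family reaches 36.8% higher with 0 lower, and laminins and basement membrane genes reach 39.1% lower.

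GDNF family genes were the signalling list with the largest share of higher calls. GDNF is a growth factor from Sertoli and myoid cells that maintains spermatogonial stem cells. It binds the surface co-receptor GFRA1 and signals through the receptor tyrosine kinase RET. Of 19 genes on the arrays 7 were called higher and 0 lower, and the median log2 fold of the 15 with signal on either side was 1.67, against 0.12 over all genes with signal. Several of these genes are also spermatogonial markers.

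Among the receptors, Ret (chromosome 4, 152998344 to 153040556 in the GRCr8 assembly) read 707 in the binding, 1.9 in the tubular, 87.3 in the non-binding and 1.5 in the interstitial library. It stood far above the floor in the binding cells and close to 0 in both somatic libraries, at least 14.1-fold higher than in the tubular cells. A second Ret probe set read 357 against 9.3, and another was under the floor in both. Gfra1 read 186 in the binding and 65.7 in the tubular library, a 2.84-fold difference that met neither the fold nor the brightness limit. Its other probe set read 206 against 15 and missed a call because the brighter side was under 250. Gfra2, the co-receptor of neurturin, read 204 against 64.3 and was not called. Gfra3, the co-receptor of artemin, read 256 against 23.6 and 238 in the non-binding cells, so the germ cell fractions lay close together. Its log2 fold of 2.36 fell short of a call at 1.36 with a floor of 100, and the call also ended with one 75th percentile (2.32) and with quantile normalization (2.31), where the brighter side fell below 250.

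The RefSeq promoter of Ret is printed as the gene with the sharpest on-off difference among the receptors. It covers chr4:153040507-153040806 of GRCr8 on the minus strand, 250 bases before to 50 after the start.
Ret: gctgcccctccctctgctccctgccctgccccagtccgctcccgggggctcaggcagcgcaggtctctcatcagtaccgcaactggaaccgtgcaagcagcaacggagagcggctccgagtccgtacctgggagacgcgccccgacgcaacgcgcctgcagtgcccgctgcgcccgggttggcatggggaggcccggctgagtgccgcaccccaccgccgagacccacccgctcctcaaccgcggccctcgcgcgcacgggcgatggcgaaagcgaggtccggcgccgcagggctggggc
It held 35 CG dinucleotides and 74.0% G and C, against medians of 7 and 51.7% over 33469 RefSeq promoters. It had no match on either strand to GGGCGG (the GC box, in 33.1% of all promoters), TATAAA (14.2%), CCAAT (37.5%), AACAAT (a SOX core, 11.7%) or CACGTG (an E-box, 6.42%).

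Among the ligands, Gdnf itself was under the floor in both libraries, at 24.3 in the binding and 45.8 in the tubular cells, so no direction can be given. Nrtn, which encodes the related factor neurturin, read 790.0 in the binding, 3.5 in the tubular, 104 in the non-binding and 3.6 in the interstitial library. The ligand thus appeared on the germ cell side, at least 15.8-fold higher than in the tubular cells.

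Transcription factors that respond to GDNF in spermatogonia supplied 4 calls of 11. Egr4, an immediate early factor, read 891 in the binding and 4.4 in the tubular library, with 146 in the non-binding cells, at least 17.8-fold higher. Etv4 read 906 against 161 (5.62-fold), Egr2 622 against 119 (5.22-fold) and Bcl6b, a repressor needed for stem cell maintenance, 565 against 139 (4.06-fold). Egr2 read 839 in the interstitial cells, so it was not low in all somatic cells. As an alternative, the log2 folds of a gene were averaged over all its probe sets on the array type read for it. Bcl6b then had 1.28 and Egr2 1.19, and neither was called. Etv5, another GDNF target, went the other way without a call, at 199 against 314. Id4 read 148 against 66.8 on type A, while a type B probe set read 431 against 1656 and was called lower, so its direction depends on the probe set.

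**Figure D3:**
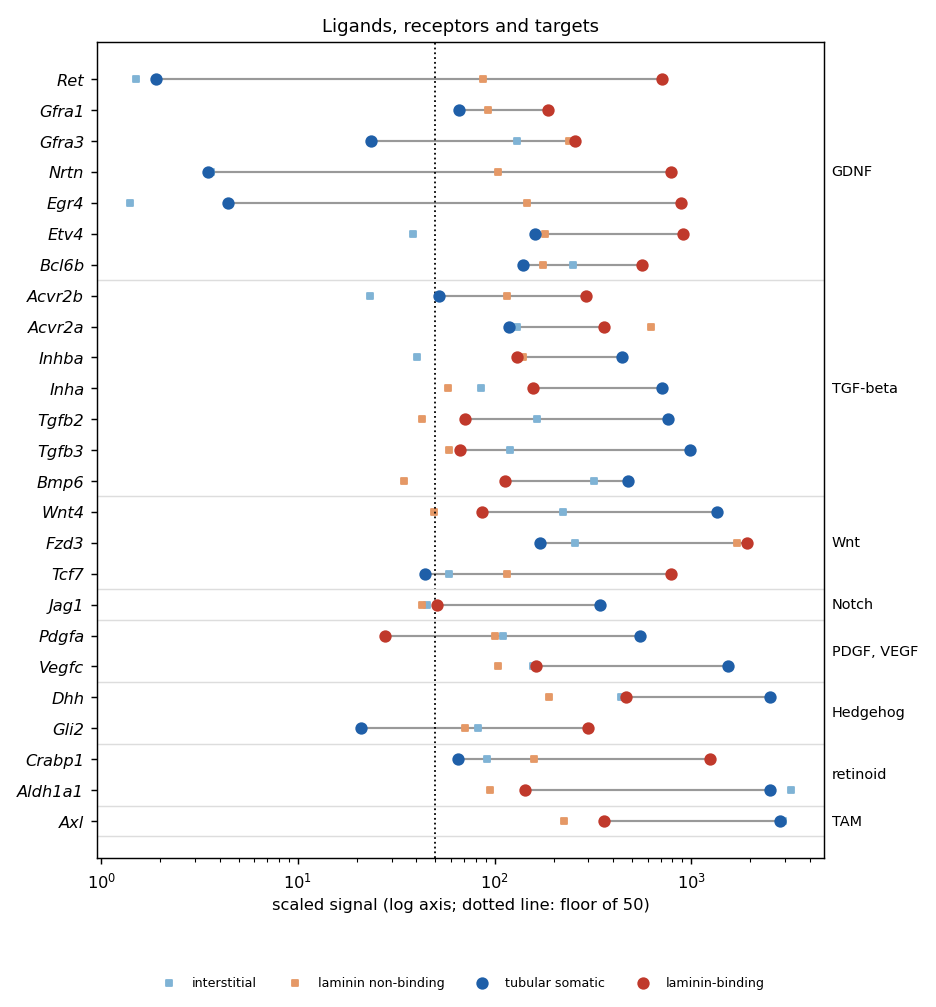
Scaled signal (log axis) of ligands, receptors and targets in laminin-binding (red) and tubular somatic (blue) cells, joined by a line, with non-binding germ cells (orange) and interstitial cells (light blue) as squares; 1 array per point, and points can cover each other. The dotted line is the floor of 50. Ret, Nrtn and Egr4 lie to the far left in tubular cells, at 1.9, 3.5 and 4.4, while Wnt4, Tgfb2, Tgfb3, Pdgfa and Vegfc are brightest in the tubular cells.

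Few FGF genes were called. FGF2 acts with GDNF on spermatogonia through FGF receptors. Of 34 genes 1 was called higher, 2.94% beside 6.68% over all genes, and 0 lower. Of the 21 ligands, 19 were under the floor in tubular cells and 17 in the binding cells. Fgf2 read 70.0 in the binding and 59.6 in the tubular library, Fgfr1 268 and 294, and Fgfr2 68.1 and 93.7. The called gene was Fgf13, 549.5 against 87.8 (6.26-fold), which encodes an intracellular relative of the FGFs that is not secreted. Fgfr3 read 14.4 and 5.6 on type A, under the floor on both sides, but its type B probe set read 2648 in the binding, 177 in the tubular, 763 in the non-binding and 257 in the interstitial library. The receptor was therefore called by only 1 of its 2 probe sets.

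KIT and CXCR4 are the receptors of 2 classical somatic signals to germ cells. Kitlg, the KIT ligand of Sertoli cells, read 110.2 in the binding, 281 in the tubular and 521 in the interstitial library and was not called against the tubular cells (log2 fold -1.35). Kit, the mark of differentiating spermatogonia, was under the floor at 32.7 and 25.9. Cxcl12 was near the floor in both, at 57.0 and 58.1, and read 3762 in the interstitial cells. Its receptor Cxcr4 read 153 in the binding, 27.6 in the tubular, 102 in the non-binding and 159 in the interstitial library, too dim for a call.

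In the TGF-beta superfamily the called ligands were lower and the called receptors higher in the binding cells. Of 21 ligands 5 were called lower in the binding cells and 0 higher, while of 11 receptors 2 were higher and 0 lower by the probe sets used. Acvr1, an activin type I receptor, read 57.9 and 32.9 by that probe set, but 84.7 and 521 by one on type B, which was called lower. Tgfb3 read 66.6 in the binding, 980.0 in the tubular, 58.3 in the non-binding and 119.7 in the interstitial library (14.7-fold lower). Tgfb2 read 70.8 and 761 (10.8-fold lower), and a type B probe set repeated this at 64.6 and 422. Its remaining 2 probe sets did not show it, and the average over the type A probe sets was -1.37 and not called. Both factors loosen the Sertoli cell barrier in cultured cells.

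Inhibins and activins are dimers of shared subunits made in Sertoli cells. Inha, the inhibin alpha subunit, read 158 in the binding and 713 in the tubular library (4.53-fold lower). Inhba, the activin A subunit, read 129.8 and 447 (3.44-fold lower) and only 40.4 in the interstitial cells. Inhbb read 30.9 and 154 and was too dim to be called. Bmp6 read 113 and 476 (4.21-fold lower), and the average over its type A probe sets was -1.04 and not called.

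Acvr2b, which encodes a type II activin receptor, read 292 in the binding, 52.3 in the tubular, 116 in the non-binding and 23.2 in the interstitial library (5.58-fold higher). With a floor of 100 its log2 fold was 1.55 and no longer called. Acvr2a, the other type II receptor, read 358 and 118 (3.02-fold higher) and 624 in the non-binding cells. That fold lay at the limit, and quantile normalization ended the call at 1.55. Of the receptors for TGF-beta, Tgfbr1 read 640.4 and 426, Tgfbr3 58.8 and 83.4, and neither was called. Tgfbr2 had no named probe set and was not measured. Among the inhibitors Dcn, a matrix proteoglycan that binds TGF-beta, was 5.16-fold lower at 54.5 against 281, and read 4330.3 in the interstitial cells. A floor of 100 ended this call at -1.49.

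Retinoic acid starts spermatogonial differentiation and is made by aldehyde dehydrogenases. Aldh1a1, the Sertoli cell enzyme, read 142 in the binding, 2507 in the tubular, 95.0 in the non-binding and 3221 in the interstitial library (17.7-fold lower). Aldh1a3 read 109 and 335 (3.06-fold lower). The retinoic acid-binding protein Crabp1 stood on the germ cell side at 1252 against 65.1, with 159 in the non-binding and 91.8 in the interstitial cells (log2 fold 4.27). None of the 6 retinoid receptors on the arrays was called.

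Notch, Wnt and Hedgehog each had 1 ligand called, lower in the binding cells, of 6, 14 and 3 on the arrays. Over all genes 6.61% were lower. Most measured Notch and Wnt ligands went the other way: 3 lay above equal signal and 1 below for Notch, and 7 above and 3 below for Wnt. Jag1, a Notch ligand, read 51.1 in the binding and 343 in the tubular library (6.72-fold lower), and 45.5 in the interstitial cells. Rbpj, the DNA-binding partner of Notch, read 358 and 116 (3.07-fold higher), and quantile normalization ended this call at 1.58. Wnt4 read 86.3 in the binding, 1358 in the tubular, 49.0 in the non-binding and 223 in the interstitial library (15.7-fold lower).

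Of 12 Wnt receptors 1 was called, and of the 10 measured 4 lay above equal signal and 6 below. The called receptor, Fzd3, read 1911 in the binding, 170.2 in the tubular, 1715 in the non-binding and 257 in the interstitial library (11.2-fold higher). Both germ cell fractions were thus above both somatic ones. Tcf7, a transcription factor of the pathway, read 792 and 44.0 (at least 15.8-fold higher) but only 116 in the non-binding cells. Dhh, the Hedgehog ligand of Sertoli cells, read 466 in the binding and 2526 in the tubular library (5.42-fold lower). Gli2, a transcription factor that carries the Hedgehog response, read 297 and 21.0 (at least 5.94-fold higher), and a floor of 100 ended that call at 1.57.

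Insulin-like growth factor genes had 3 higher (17.6%) and 1 lower (5.88%) of 17, beside 6.68% and 6.61% over all genes. Igf2 read 308 in the binding and 69.5 in the tubular library (4.43-fold higher), but the average over its probe sets was 0.54 and not called. Igfbp2, a binding protein that holds IGFs outside cells, read 722, 51.2, 205 and 226 in the binding, tubular, non-binding and interstitial libraries (14.1-fold higher than tubular). Igfbp6 was 3.67-fold higher at 254 against 69.4, and lost its call with a floor of 100 (1.35) and with the average over probe sets (0.94). Igfbp7 was lower at 120.0 against 411 and reached 2326 in the interstitial cells. Igf1 was under the floor in both libraries and read 2881 in the interstitial cells, and its receptor Igf1r read 575 and 252 without a call.

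Of 8 PDGF and VEGF ligands 2 were lower and 0 higher, 25% lower beside 6.61% over all genes. Pdgfa read 27.6 in the binding, 548 in the tubular, 101 in the non-binding and 109.9 in the interstitial library (at least 10.95-fold lower), and Vegfc read 163 and 1545 (9.49-fold lower). None of the 7 receptors of that list was called. Axl, a receptor kinase that serves clearance of dying germ cells, read 360.0 in the binding, 2840.1 in the tubular and 2939 in the interstitial library (7.89-fold lower). Its ligand Gas6 was not called and had no settled direction, with 105 in the binding and 50.9 in the tubular library on type A and 3634 and 9249 by a brighter probe set on type B.

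Among 41 chemokine genes 6 ligands were lower and 0 genes higher, 14.6% lower beside 6.61% over all genes. Cxcl11 read 99.1 in the binding and 1108 in the tubular library (11.2-fold lower), and Cxcl16 read 74.3 and 630.4 (8.48-fold lower). Ccl20 read 58.2 and 331, and Cxcl13 59.8 and 273. Cxcl13 and Ccl5 lost their calls with a floor of 100, at -1.45 and -1.43. Of 15 chemokine receptors none was called, with 12 under the floor in the tubular and 6 in the binding cells. Among the 11 with signal, 9 lay above equal signal, brighter in the binding cells, and 2 below.

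Cytokine genes had 1 higher (1.72%) and 6 lower (10.3%) of 58, beside 6.68% and 6.61% over all genes. The lower receptors were Tnfrsf1a, the main receptor of TNF, at 73.2 against 441 (6.02-fold), Tnfrsf12a at 559.5 against 3343 (5.98-fold), Ifngr1 at 67.2 against 250.1 (3.72-fold) and Il6st, the shared signal chain of the interleukin 6 family, at 663 against 2083 (3.14-fold). The Il6st call ended with quantile normalization (-1.46) and with the average over its type A probe sets (-1.42). The lower ligands were Tnfsf10 at 34.6 against 294 and Clcf1 at 98.2 against 346. A floor of 100 ended the calls of Ifngr1 (-1.32) and Tnfsf10 (-1.56). Csf2ra, a subunit of the GM-CSF receptor, was the cytokine receptor called higher, at 1999 in the binding, 427 in the tubular, 877 in the non-binding and 589.7 in the interstitial library (4.69-fold).

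Guidance and contact signals went both ways. Sema6d, a membrane semaphorin, read 624 in the binding and 51.3 in the tubular library (12.2-fold higher), yet 752 in the interstitial cells. Reln, a secreted matrix glycoprotein, read 889 and 247 (3.59-fold higher), and the average over its probe sets was 0.92 and not called. Efnb3, an ephrin, was 3.49-fold higher at 543 against 156, and Erbb2, a neuregulin co-receptor, 3.01-fold higher at 292 against 97.2. The Erbb2 call ended with a floor of 100 (1.55) and with quantile normalization. On the tubular side, Sema3c read 119.8 and 828 (6.91-fold lower), the plexin Plxnb2 67.0 and 399.6 (5.96-fold lower) and the sorting receptor Sort1 199 and 798 (log2 fold -2.00). A second Sort1 probe set went the other way at 143 and 84.4, and the average was -0.62 and not called. None of the 8 hormone receptors was called.

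A further 13 genes of the lists were called only by a probe set other than the one read for the counts. Itga8 had the largest fold of these and is given with the integrins. Fstl3, which encodes a follistatin relative that blocks activin, read 523 in the binding and 9943 in the tubular library on type B. Plxnc1, a semaphorin receptor, read 958 and 4682. No gene of the lists was called in opposite directions by 2 of its probe sets.

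Ligand and receptor genes were also set out as 74 named pairs, of which 65 had both genes on the arrays. For 42 neither gene was called by the probe sets read for the counts. The layout with a lower ligand and a higher receptor in the germ cells occurred in 2 pairs, Inhba with Acvr2b and Inhba with Acvr2a. In 3 pairs both genes were lower, all of them matrix and receptor pairs: Lamb2 with Itgb1, Lamc1 with Dag1 and Col4a1 with Itga1.

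In 7 pairs the ligand alone was lower and the receptor was not called. These included Tgfb2 with Tgfbr1, Jag1 with Notch1 (124 and 158), Wnt4 with Fzd6 (173 and 318), Pdgfa with Pdgfra (83.4 and 42.6) and Fn1 with Itga5 (213 and 209). In 5 pairs the ligand alone was higher, such as Igf2 with Igf2r (246 and 512), Reln with Vldlr (12.8 and 63.7) and Lrp8 (292 and 309.6), and Lama5 with Itga3 (200.4 and 339). In 2 pairs the receptor alone was higher, Gdnf with Ret and Inhbb with Acvr2a, and in both the ligand stayed under 250 in the tubular cells. In 4 pairs the receptor alone was lower, Il6 with Il6st, Tnf with Tnfrsf1a, Gas6 with Axl and Cadm1 with Pvr.

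Basement membrane genes were lower in the germ cells than any other list by share. Laminins are trimers of an alpha, a beta and a gamma chain that assemble with type IV collagen. Of 23 genes 9 were lower and 1 higher, with a median log2 fold of -0.98 over the 21 with signal. Col4a5 (chromosome X) read 86.6 in the binding, 1343 in the tubular, 52.0 in the non-binding and 1505 in the interstitial library (15.5-fold lower). Lama4 read 40.4 and 526 (at least 10.5-fold lower), Col18a1, the source of endostatin, 112 and 1072 (9.60-fold lower), and Lamc1, the common gamma chain, 311 and 1986 (6.38-fold lower). A dim second probe set of Lamc1 brought its average to -1.57, just short of a call. Fn1, Lamb1, Col4a1, Lamb2 and Sparc were lower by 3.10-fold to 6.21-fold, and the average over probe sets ended the call of Sparc at -1.33. All but Col18a1 and Lamb2 were brighter still in the interstitial cells, Lamb1 at 2657 and Fn1 at 3189.

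Lama5 was the exception. This alpha chain read 270.4 in the binding, 58.2 in the tubular, 83.7 in the non-binding and 94.3 in the interstitial library (4.65-fold higher). Its 2 other probe sets were under the floor. The call ended with a floor of 100 (1.44) and with the average over its type A probe sets (1.11).

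No receptor for laminin was called higher in the laminin-binding cells than in the tubular cells. Of 32 integrins and laminin receptors, 6 were lower and 0 higher. Itgb1, the beta chain of most laminin-binding integrins, read 632 in the binding, 3861 in the tubular, 468 in the non-binding and 1595 in the interstitial library (6.11-fold lower). Dag1, the laminin receptor dystroglycan, read 314 and 2256 (7.19-fold lower), and a second probe set gave 227 and 786. Averaged over its type A probe sets, Dag1 had -1.55 and was not called. Itga6, the alpha chain that pairs with beta 1 to bind laminin, read 76.1 and 73.2 on type A. The brightest type B probe set for Itga6 read 3270 in the binding, 7991 in the tubular, 443 in the non-binding and 273 in the interstitial library, a log2 fold of -1.29 that was not called. Itga6 was thus bright in both populations of the comparison by that probe set.

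Other integrin chains on the tubular side were Itga9 at 181 against 2459 (13.6-fold lower), Itgav at 178 against 2248 (12.6-fold lower) and Itga1, a collagen receptor, at 20.2 against 403 (at least 8.06-fold lower). Itga8 was among the 10 largest differences over probe sets, at 80.3 against 2248 on type B, though its type A probe set read 28.5 and 80.2. Cd81, a tetraspanin partner of integrins, read 849.7 and 3838 (4.52-fold lower). Cd9, its relative used to select spermatogonia, read 138 and 72.2 and was not called, and Thy1 was under the floor at 40.1 and 34.5.

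Tight junctions between Sertoli cells seal the adluminal compartment. Of 45 tight junction genes 8 were lower in the binding cells and 1 higher. Cgn, which encodes the plaque protein cingulin, read 415 in the binding, 6412 in the tubular, 200.2 in the non-binding and 664 in the interstitial library (15.5-fold lower). Cldn11, the claudin of Sertoli cells, read 637, 3389.9, 156 and 1621 in the same order (5.32-fold lower). The second Cldn11 probe set was under the floor in both libraries of the comparison, which brought the average to -1.21. F11r, a junctional adhesion molecule, read 489 and 2391 (4.89-fold lower), and Tmem47 100.3 and 988 (9.85-fold lower).

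Plaque genes were lower in 5 of 19 cases. Tjp1, the scaffold ZO-1, read 736 in the binding and 2680.2 in the tubular library (3.64-fold lower), but 2329.9 in the non-binding germ cells. Ybx3, a ZO-1 partner that acts as a transcription factor, read 113 and 819.9 (7.26-fold lower) with 822 in the non-binding cells, and Pals1, a polarity scaffold, 336 and 1438 with 1162 there. For Tjp1, Ybx3 and Pals1 the binding cells were below the non-binding cells as well. The average over probe sets ended the call of Pals1, with its second probe set at 208 and 387. Cgnl1, a relative of cingulin, read 70.2 and 307 (4.38-fold lower). Ocln, which encodes occludin, read 213 and 567 and was not called (log2 fold -1.41), nor was Jam3 at 421 and 761. Jam2 read 448 and 332 by the probe set used, while 2 other probe sets read 119 against 1280.3 and 159 against 800.4 and were called lower.

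Cldn12 was the tight junction gene on the germ cell side. It encodes a claudin that lacks the usual scaffold-binding tail and read 2182 in the binding, 266 in the tubular, 496 in the non-binding and 361 in the interstitial library (8.19-fold higher).

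Gap junction genes had 1 higher and 1 lower call of 13, 7.69% each, beside 6.68% and 6.61% over all genes. Of the 7 with signal 6 lay above equal signal. Connexins form channels that pass small molecules between cells. Gja1, connexin 43, which couples Sertoli cells to each other and to germ cells, read 586 in the binding, 3001 in the tubular, 311 in the non-binding and 2528 in the interstitial library (5.12-fold lower). Gjc1, connexin 45, read 4709, 251, 2461 and 1749 in the same order (18.8-fold higher than in tubular cells). Gjc1 was bright in every library but the tubular one. The 2 remaining probe sets of Gja1 sat at or under the floor, and the average over the 3 was -0.76. Gjb2, connexin 26, was near the floor at 54.0 and 15.2, and Gja4 read 194 and 59.0 and was too dim for a call.

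**Figure D4:**
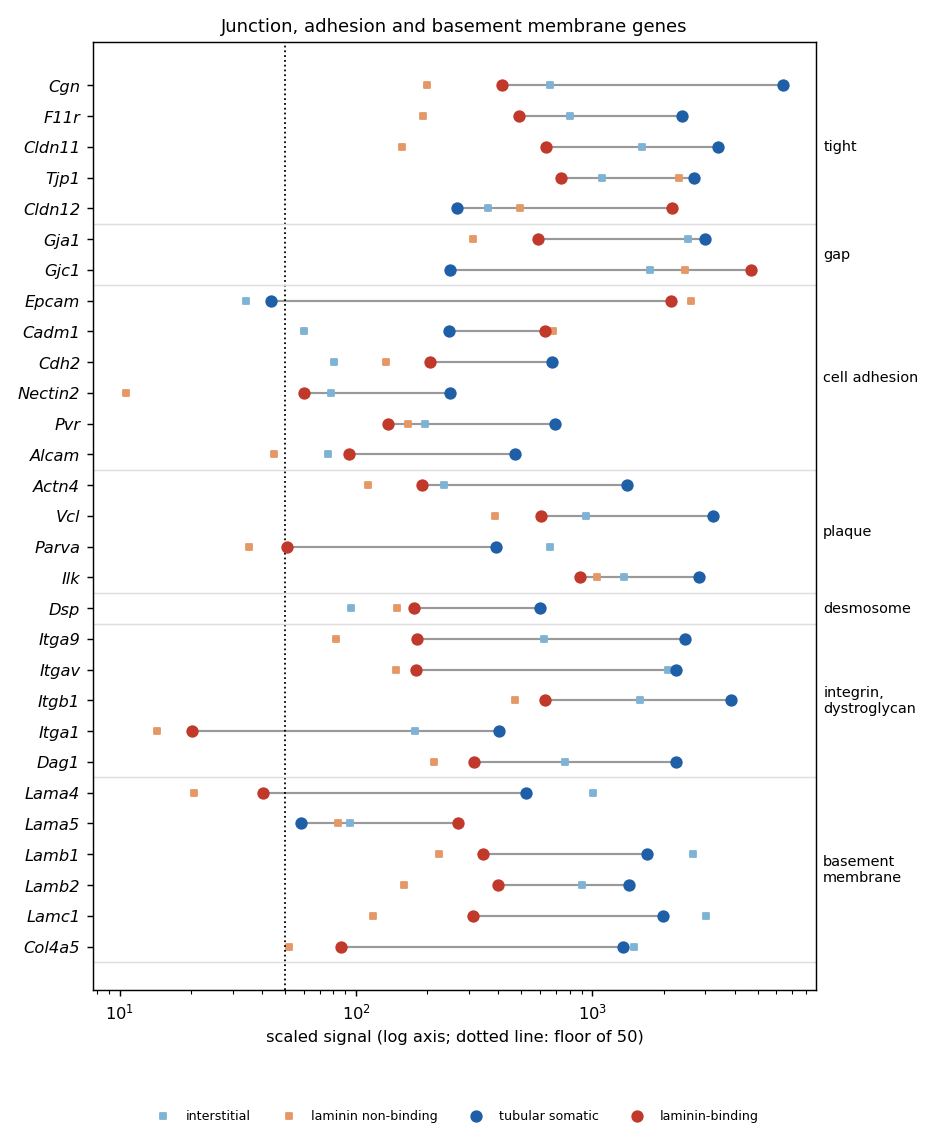
Scaled signal (log axis) of junction, adhesion and basement membrane genes in laminin-binding (red) and tubular somatic (blue) cells, joined by a line, with non-binding germ cells (orange) and interstitial cells (light blue) as squares; 1 array per point. The dotted line is the floor of 50. Epcam, Cldn12, Gjc1 and Lama5 have the red point to the right, at 2153, 2182, 4709 and 270.4, whereas most genes have the blue point to the right.

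Adherens junction and nectin genes were lower in 15 of 59 cases and higher in 2. Epcam, a homophilic adhesion molecule of epithelia and spermatogonia, read 2153 in the binding, 43.6 in the tubular, 2617 in the non-binding and 34.3 in the interstitial library (at least 43.1-fold higher). It separated both germ cell fractions from both somatic ones. Ctnnd2, delta-catenin, read 696 and 217 (3.21-fold higher). Cadm1, an adhesion molecule of germ cells, read 628 and 248 with 682 in the non-binding and 60.0 in the interstitial cells, short of a call.

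The cadherin Cdh2, which joins Sertoli cells to germ cells, read 205 in the binding, 678 in the tubular, 133 in the non-binding and 80.9 in the interstitial library (3.30-fold lower). Membrane partners on the tubular side were Vcam1 at 57.1 against 487 (8.52-fold lower), Pvr at 136 against 695 (5.10-fold lower), Alcam at 93.2 against 469.5 (5.04-fold lower) and Nectin2 at 60.0 against 250.2 (4.17-fold lower). Nectin2 read 10.6 in the non-binding cells, and its call ended with a floor of 100 at -1.32. Its partner Nectin3, which sits on germ cells, read 558 and 347 and was not called, and it was brightest in the non-binding cells at 3315.

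Actin-linking plaque genes of adherens and matrix junctions were lower in 9 of 27 cases and higher in 1, with 23 of the 26 measured below equal signal. Parva read 50.9 and 391 (7.69-fold lower), but its second probe set read 50.4 and 31.6 and the average of -1.47 was not called. Actn4, an actin bundler, read 190.3 and 1402 (7.37-fold lower). Vcl, which encodes vinculin, read 604 in the binding, 3239.6 in the tubular, 389 in the non-binding and 944 in the interstitial library (5.37-fold lower). Sorbs2 read 131 and 649 (4.96-fold lower). Lims1 read 972 and 4225, but a dim second probe set went the other way at 183 and 41.7, and the average was -0.12. Ctnnb1, the shared beta-catenin, read 5948 and 3872 and was not called. Of 9 desmosome genes only Dsp, desmoplakin, was called, at 175 against 598 (3.41-fold lower).

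The promoters of 4 junction genes are printed because these genes stood at opposite ends of the comparison, Epcam higher and Cgn, Cldn11 and Gja1 lower in the binding cells. Capitals mark matches on either strand to the motifs named above for Ret. In GRCr8 they cover chr6:12649629-12649928 (minus strand), chr2:185023586-185023885 (minus), chr2:114149490-114149789 (minus) and chr20:36302314-36302613 (plus).
Epcam: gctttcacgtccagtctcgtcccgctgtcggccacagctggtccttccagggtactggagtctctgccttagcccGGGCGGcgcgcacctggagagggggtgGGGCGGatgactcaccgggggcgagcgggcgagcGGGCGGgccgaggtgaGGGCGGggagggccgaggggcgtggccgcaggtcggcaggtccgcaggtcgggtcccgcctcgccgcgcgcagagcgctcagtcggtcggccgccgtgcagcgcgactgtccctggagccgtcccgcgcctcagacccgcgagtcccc
Cgn: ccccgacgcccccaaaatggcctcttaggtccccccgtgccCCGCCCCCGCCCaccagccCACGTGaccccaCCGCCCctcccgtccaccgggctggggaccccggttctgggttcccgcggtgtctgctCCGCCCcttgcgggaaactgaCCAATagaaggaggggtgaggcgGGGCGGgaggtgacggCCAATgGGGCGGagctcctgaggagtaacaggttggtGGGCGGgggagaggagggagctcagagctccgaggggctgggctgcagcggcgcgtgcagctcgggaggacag
Cldn11: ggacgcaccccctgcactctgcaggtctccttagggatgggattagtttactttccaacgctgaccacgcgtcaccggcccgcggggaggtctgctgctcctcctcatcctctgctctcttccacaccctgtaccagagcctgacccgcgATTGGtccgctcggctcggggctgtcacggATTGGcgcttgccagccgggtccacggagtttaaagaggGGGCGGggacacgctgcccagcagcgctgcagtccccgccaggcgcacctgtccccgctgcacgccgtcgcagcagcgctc
Gja1: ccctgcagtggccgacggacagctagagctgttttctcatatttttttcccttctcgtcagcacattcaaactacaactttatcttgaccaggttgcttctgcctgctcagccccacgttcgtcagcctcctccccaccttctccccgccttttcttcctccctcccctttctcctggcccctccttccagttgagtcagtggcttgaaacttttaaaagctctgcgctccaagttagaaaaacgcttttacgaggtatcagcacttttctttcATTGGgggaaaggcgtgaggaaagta
Epcam held 4 GC boxes and 40 CG dinucleotides. Cgn held 7 GC boxes, 2 CCAAT boxes and 1 E-box, with 24 CG dinucleotides. Cldn11 held 1 GC box and 2 CCAAT boxes with 26 CG dinucleotides, and Gja1 held 1 CCAAT box and 10 CG dinucleotides. These matches describe the letters of the windows and were not linked to the signals.

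Proteolysis and exchange between Sertoli and germ cells were counted last. Proteases and their inhibitors remodel contacts as germ cells move, and 11 of 36 were lower with 1 higher. The stromelysin Mmp3 read 104 and 1056 (10.1-fold lower), Adamts1 97.6 and 728, Ctsk 102 and 763, and the Sertoli cathepsin Ctsl 863 and 4122 (4.78-fold lower). Of 12 inhibitors 5 were lower, with Timp3 at 236 against 1573 (6.67-fold), Timp1 at 211 against 1392 (6.60-fold), A2m at 68.7 against 421 (6.12-fold) and Cst3 at 162 against 945 (5.81-fold). With dim probe sets averaged in, Timp3 had -1.41 and was not called. Serpine2, a thrombin inhibitor, was the higher one, at 448 against 91.5 (4.90-fold).

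Of 9 secreted carriers 3 were lower and 0 higher. Clu, clusterin, which is also a Sertoli marker here, read 74.3 in the binding, 982 in the tubular, 179 in the non-binding and 94.7 in the interstitial library (13.2-fold lower). Cp, the iron oxidase ceruloplasmin, read 4.8 and 399 (at least 7.97-fold lower) and 1524 in the interstitial cells, and Psap, which encodes prosaposin, 257 and 1384 (5.39-fold lower). Of 17 transporters, Slc2a8, a glucose transporter, was higher at 255 against 66.5 (3.84-fold), and Slc11a2, an iron transporter, lower at 411 against 1238 (3.01-fold, at the limit). The Slc2a8 call ended with a floor of 100 (1.35), and that of Slc11a2 with one 75th percentile (-1.57), with quantile normalization (-1.48) and with the average over probe sets (-1.17).

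The 10 largest differences in each direction were taken over probe sets of both types with 1 symbol and both sides above the floor. They were mostly outside these lists. The laminin-binding cells were highest for Tnrc6c, which acts in microRNA silencing, at 7919 against 94.5 (83.8-fold), Ccdc88c, a Wnt pathway regulator, at 6801 against 84.4 (80.6-fold), and the germline gene Tex19.2 at 3977 against 53.6 (74.2-fold). Tro, Dxo, Erich2, Tmem130, Tex15, Klhl23 and Spc25 followed at 29.1-fold to 50.2-fold. The tubular cells were highest for C13h1orf115 at 6307 against 83.9 (75.2-fold) and Mybphl at 2488 against 75.2 (33.1-fold). Gbp4, Ifit2, Mx1 and Mx2, which interferon induces, differed by 23.9-fold to 32.4-fold, and Nags, Itga8, Cd200 and Wnk3 by 22.9-fold to 28.9-fold. Several of the dim sides lie close to the floor, where a fold is less sure.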

How the data were processed

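Per the labels, 50 ng of total RNA passed through 2 rounds of amplification. As deposited, the values are linear intensities per probe set, scaled by the authors to an average of 250 per array, with scale factors of 1.028 (binding) and 0.584 (tubular) on type A and 4.009 and 3.274 on type B. The plain mean over probe sets was 321 to 348 on these 4 arrays, so the average of 250 is not a plain mean. The floor of 50 equals unscaled signals of 48.6 and 85.6 on type A and 12.5 and 15.3 on type B. Detection calls (Tau 0.015) were not used. Software, background treatment and build: not given in the sources used here.

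Type A held 15923 and type B 15333 probe sets. 57 controls per type were left out, and 100 probe sets on both types were counted once. Genes were named from GEO's platform annotation where a probe set had a single symbol, with positions from RefSeq's GRCr8 tables. The probe set with the highest mean log2 signal over the 9 arrays of a type stood for a gene, from type A where present and from type B for 3399 genes. A difference is log2 of the floored binding over the floored tubular signal, and the number of arrays limits its precision.

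The populations, gene lists and pairs were chosen with earlier results of these data known. The lists hold 101 further genes with no named probe set. Named genes are the 10 largest folds each way, called list members (at least the 4 largest per role and direction), both genes of a pair with a call, and a fixed set of niche genes. Promoters were found for 524 of the 683 genes. Alternatives were other floors, fold and brightness limits, 2 scalings, 1 array type, and the average over a gene's probe sets on the type read for it. Python 3.11.15, numpy 2.4.6 and pandas 2.3.3 were used, with the calls tested on simulated data.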

Additional observations from a re-analysis of the deposited data

How the results depend on the processing

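No alternative changed the sign of a called gene. The average over probe sets left out the type B probe sets of genes read on type A, so disagreement between the types was not covered. Values without a call did change sign: Fgf2 (0.23 to -0.02) and Itga6 (0.06 to -0.16) with quantile normalization, and the medians of the EGF list (0.56 to -0.25, floor of 25), the Wnt list (0.24 to -0.03, type A alone) and the chemokine list (0.06 to -1.15 with a floor of 100, -0.04 with quantile normalization). A fold limit of 2 gave 2701 probe sets higher and 2694 lower, and a limit of 5 gave 742 and 859. Type A alone gave 765 higher and 893 lower and type B alone 723 and 738. The floor of 25 could not change a call, and a floor of 100, both scalings and both lower brightness limits kept the counts within 1.5 times, from 1341 to 1958 higher and from 1491 to 2050 lower. Of the 115 called list genes, 102 kept their call with a floor of 100, 113 with one 75th percentile, 108 with quantile normalization and 92 with the average over probe sets. With interstitial in place of tubular cells, 24 counts per list and direction moved and 28 did not. A count moved where it changed by over 1.5 times or went from or to 0. Counts of 0 on both sides were among those that did not move. The cause of each lost call beyond the setting itself was not tested. Dim signals set the limit: 250 of the 683 list genes were under the floor in the binding and 283 in the tubular library. No paired analysis was possible because each population has 1 array per type and the labels give no replicate numbers.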

Other observations

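Some of the genes described above were also read in the feeder-grown germ cells, chosen after their values were seen and given as values. The labels do not say whether feeder cells were removed before RNA was taken.

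Wnt4 was under the floor in all 5 feeder-grown libraries, between 1.7 and 27.5, against 1358 in the tubular cells. Gjc1, connexin 45, read 3897, 3493, 2706 and 1685 on STO feeders at days 1, 5, 10 and 20 and 2089 on MSC1 feeders, so every germ cell library was above the 251 of the tubular cells. Cgn, cingulin, read 121 to 450 in those libraries against 6412. Lama5 read 294, 327, 188 and 55.6 over the STO days and 305 on MSC1, so it was at the tubular level only on STO day 20. Ret followed the same layout, with 1729.5, 768, 318 and 48.6 over the STO days and 1145 on MSC1. Tjp1 and Pals1 were bright on STO day 20, at 2389 and 1524, close to the non-binding cells at 2329.9 and 1162 and above the binding cells at 736 and 336. Cldn11 and Gja1 read 616 and 728 on the MSC1 feeder, a mouse Sertoli line, at day 20, and 88.3 and 128 on STO day 1. Feeder and day both differ between these libraries and cannot be told apart. The other STO days of these genes are not given here.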
